A study of Gallus gallus with 6 samples.

Results

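Chromatin modifiers and nuclear receptor coregulators were selected by gene symbol from the deposited count table of a retinoic acid (RA) experiment in chick retina. The symbol rule took the histone deacetylases (HDAC), acetyltransferases (KAT), demethylases (KDM) and methyltransferases (KMT, SETD, EZH, EED, SUZ12), the SMARC, ARID and CHD remodellers, SIN3 scaffolds, bromodomain proteins (BRD), DNA methylation enzymes (DNMT, TET) and the receptor coregulators NCOR, NCOA1 to NCOA7 and NRIP1. It found 37 genes among the 6789 in the table. Of these, 35 passed the filter on low counts, as did 5041 genes of the whole table. DNMT1, the maintenance DNA methyltransferase, and SMARCA4, an ATPase of the BAF remodelling complex, were listed at 0 in all 6 libraries, as were 623 genes in all, so neither has a value here. The receptor coregulators among them were 3, NCOA1, NCOA4 and NCOA7. The table held no NCOR, NRIP1, NCOA2, NCOA3, NCOA5 or NCOA6 symbol, and no KMT, EZH, EED or SUZ12 symbol. Those genes therefore have no value here either.

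Cells positive for Hes5.3 were sorted by flow cytometry from retinas of chick embryos at embryonic day 5. Before sorting, whole retinas had been cultured for 8 h in medium with 10% fetal bovine serum, with 2.5 µM RA in the treated group and with DMSO, the solvent, in the control group. Each group comprised 3 libraries, and each library pooled 2 retinas from separate embryos. The untreated retinas were the contralateral eyes of the treated embryos, which gives 3 pairs, numbered 1, 3 and 4. No genotype, strain or sex is given in the labels, and each library pools embryos, so variation between single embryos was not measured.

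Retinoic acid binds retinoic acid receptors, which sit on DNA as heterodimers with retinoid X receptors. In the standard model, the receptor without ligand holds NCOR corepressors and the deacetylase HDAC3. Ligand exchanges them for coactivators such as NCOA1 and for acetyltransferases. Many of these factors act on chromatin at a large number of other genes, and deacetylases and BAF subunits are known to affect how long neural progenitors keep dividing. The comparison therefore asked whether those transcripts of this machinery that the table held changed when RA was added. It also asked whether the receptor coregulators in the table differed in this from the other chromatin genes.

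Total counts ranged from 19808063 to 27235633 per library. The cells carried the 12 fixed retinal progenitor markers, whose summed level was 9843 to 14566 CPM (read counts scaled to library size). The sum was higher with RA in 3 of 3 pairs, with 9 of the 12 fitted log2 changes above 0 and 3 below. Of the 12, 1 was called higher, FZD5 (log2 change 0.41, edgeR adjusted p = 0.0029). The summed level was 365 to 489 CPM for 8 ganglion cell markers, 54.5 to 76.5 CPM for 10 pigment epithelium markers, 53.9 to 83.8 CPM for 9 lens markers and 14.6 to 25.5 CPM for 9 mesenchyme markers, with TTR and DCN at 0. It was 12.1 to 23.7 CPM for 7 blood and vessel markers, with GATA1 at 0. Of the known RA response genes in the fixed list 8 were tested, and 3 were called higher, CYP26A1, DHRS3 and RARB. CYP26A1, the enzyme that degrades RA, had a log2 fold change of 5.22 (SE 0.10, edgeR quasi-likelihood adjusted p = 2.14e-14). The receptor gene RARB had one of 0.91 (SE 0.12, edgeR adjusted p = 0.000588). CPM are not divided by transcript length, so levels of different genes are not ranked here, except in choosing which members to name.

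HDAC1 was the member that passed the test, and it was lower with RA. HDAC1 encodes a deacetylase shared by the SIN3, NuRD and CoREST corepressor complexes. Its level was 464, 479 and 508 CPM in the control libraries of pairs 1, 3 and 4, and 386, 399 and 393 CPM in the matching RA libraries. Each RA library was thus below each control library. The mean was 483 ± 22.4 CPM in the controls and 393 ± 6.88 CPM after RA (SD, n = 3 each). HDAC1 fell by 0.30 on the log2 scale (SE 0.07, 95% interval -0.44 to -0.16, edgeR quasi-likelihood adjusted p = 0.0448), or fell by 18.7%. By pair, its log2 change was -0.27, -0.26 and -0.37. The call sat close to the threshold of 0.05 and was lost under median-of-ratios (RLE) scaling (adjusted p = 0.0604), without the pair as a block (0.65), without pair 3 (0.277) and without pair 4 (0.307). In those 4 fits the log2 change was between -0.32 and -0.26.

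Counts of members were set beside the same counts over all genes tested. Lower calls numbered 1 of 35 members, HDAC1, against 6 of 5041 genes, or 0.119%. That background is small and itself moved, from 0 to 24 genes over the alternatives. Higher calls numbered 0 of 35 by edgeR, against 48 of 5041 genes, or 0.952%. By DESeq2 and limma-voom they were also 0 of 35, against 74 and 51 of the 5041 genes. At an unadjusted edgeR p under 0.05 there were 5 members, HDAC1, KDM3A, BRD2, KDM5B and DNMT3A. This was 14.3% of those tested, against 8.89% of all genes. In 3 of 3 pairs 4 members were higher with RA, or 11.4%, against 15.7% of all genes, and 9 were lower, or 25.7%, against 14.3%. For 3 members, HDAC1, HDAC2 and BRD7, each RA library was below each control library, which held for 3.05% of all genes. The opposite order was seen for 0 members and for 4.42% of all genes. The authors' deposited table lists 35 members, none with an adjusted p under 0.05, against 12 of its 4752 genes in all. Its value for HDAC1 is a log2 change of -0.30, with an adjusted p of 0.196 in the authors' paired test.

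**Figure D1:**
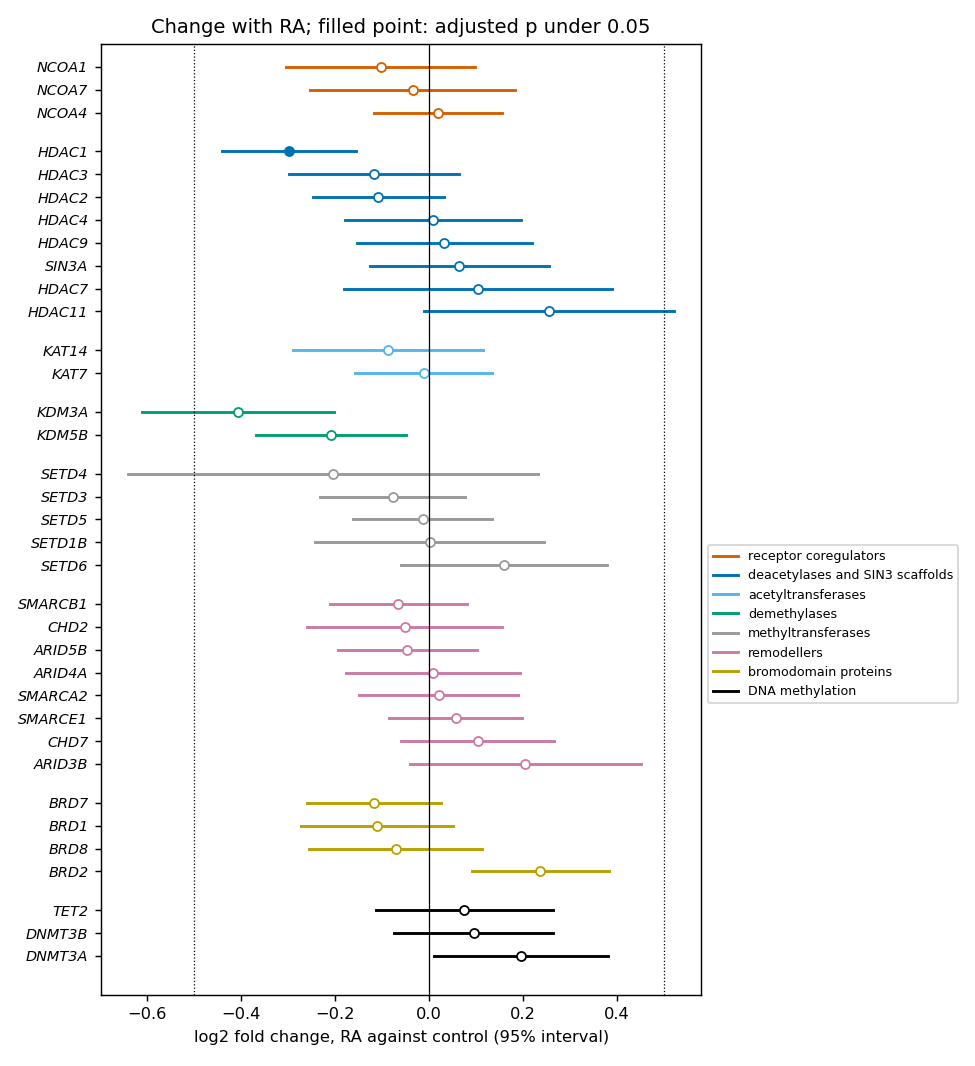
Log2 fold change of each of the 35 members tested, RA against control, with its 95% interval, grouped and coloured by role. The filled point marks HDAC1, at -0.30, and the dotted lines mark 0.5 in each direction, which the intervals of KDM3A, HDAC11 and SETD4 cross.

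For most members the data limit the log2 change to within 0.5 of 0, as for most genes of similar mean count. The 95% interval of the log2 change lay wholly within 0.5 of 0 for 32 of the 35 members, or 91.4%. The share was 71.3% over all genes tested and 90.7% over the 3768 genes whose mean count lay in the members' range of 296 to 20883 reads, which is close to the share among the members. The 3 members outside this bound were KDM3A (-0.61 to -0.20), HDAC11 (-0.01 to 0.52) and SETD4 (-0.64 to 0.23). HDAC1, which was called lower, lay within it (-0.44 to -0.16).

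The receptor coregulators had a median log2 change of -0.04 over 3 genes, the other 32 members tested one of -0.01, and all genes tested one of -0.01. By pair, the coregulators' median was -0.26, -0.03 and -0.01 in pairs 1, 3 and 4. For the other members it was 0.02, -0.07 and 0.01. The coregulators' median change was thus lowest in pair 1, through NCOA1 and NCOA7, while NCOA4 was higher with RA there (0.04). With 3 genes the median describes those genes rather than the class. None of the 3 passed the test.

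NCOA1 is a steroid receptor coactivator that binds receptors carrying ligand and recruits acetyltransferases. Its level was 85.1, 82.3 and 110 CPM in the control libraries of pairs 1, 3 and 4, and 70.7, 80.7 and 109 CPM after RA. It was lower with RA in 3 of 3 pairs, by a margin that was almost all in pair 1 (log2 change -0.27, against -0.03 and -0.01). The fitted log2 change was -0.10 (95% interval -0.30 to 0.10, edgeR adjusted p = 0.826). Both libraries of pair 4 stood above the other 4, and NCOA1 differed between pairs (edgeR adjusted p = 0.0147).

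NCOA4 was first described as a coactivator of the androgen receptor and is also the receptor that delivers ferritin for breakdown. Its control libraries held 915, 871 and 829 CPM and its RA libraries 943, 900 and 809 CPM in the same order. The groups overlapped, and the order of the pairs was the same in both. Its log2 change was 0.02 with an interval of -0.12 to 0.15 (adjusted p = 0.973), the narrowest of the coregulators.

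NCOA7, an estrogen receptor coactivator of a family linked to oxidative stress resistance, had 81.4, 89.9 and 87.8 CPM in the controls and 68.2, 87.4 and 100.1 CPM after RA. Pair 1 went down by 0.26 on the log2 scale, pair 4 went up by 0.19, and pair 3 was at -0.04. The fitted change was -0.04 (interval -0.25 to 0.18, adjusted p = 0.964), and without pair 1 it was 0.07.

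**Figure D2:**
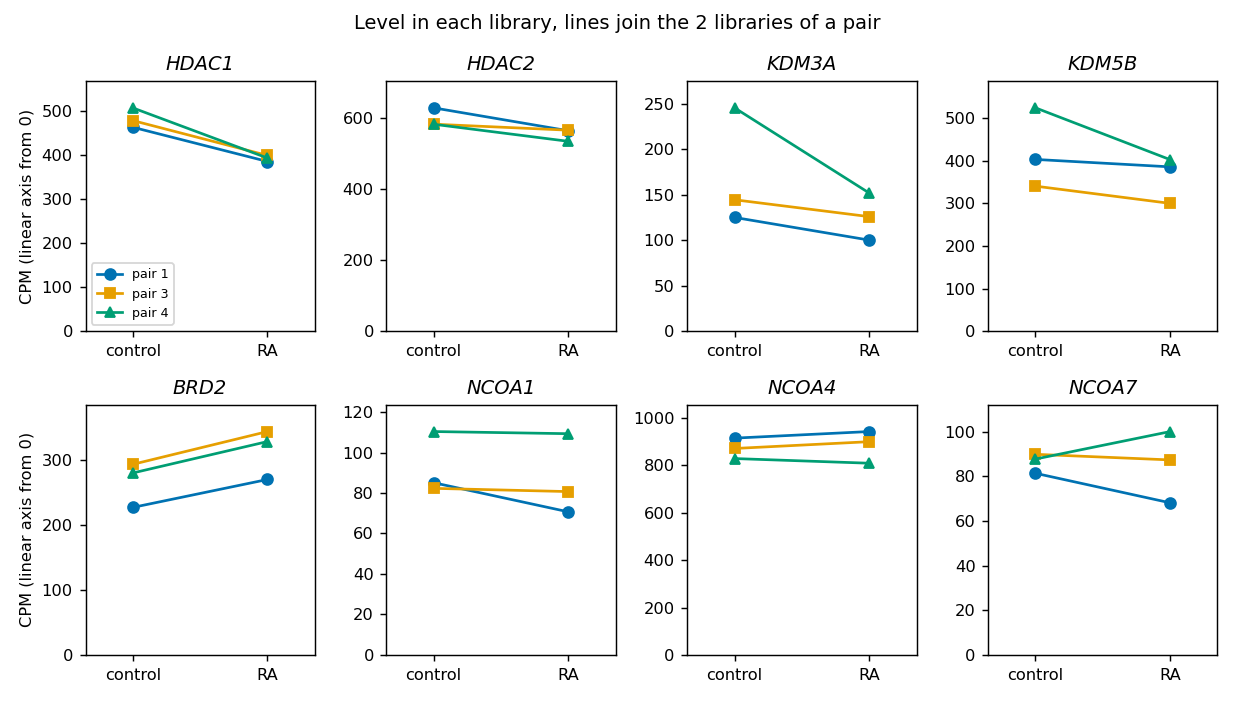
CPM of 8 members in each of the 6 libraries, on linear axes that start at 0, with a line joining the control and the RA library of each pair. HDAC1 lies lower with RA in each pair without overlap, KDM3A and KDM5B start highest in the control library of pair 4, BRD2 shifts by a similar amount in each pair, and the 3 coregulators have no common direction.

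Other genes of receptor signalling were taken from a fixed list of 43 receptors and coregulators, 11 of which were in the table and were tested. RARB was called higher, 0 were called lower, and the median log2 change of the 11 was 0.01. The receptor genes RARA and RXRG were near the lower end of the counts, at 2.15 to 4.97 and 2.27 to 9.72 CPM. Their log2 changes were -0.12 (interval -0.93 to 0.68) and 0.31 (-0.35 to 0.98). TBL1XR1, a subunit of the NCOR and HDAC3 corepressor complex that takes part in exchanging corepressors for coactivators, had 182, 185 and 229 CPM in the controls and 221, 225 and 244 CPM after RA. It was higher in 3 of 3 pairs, with a log2 change of 0.22 (SE 0.08, edgeR adjusted p = 0.307). Its close relative TBL1X had a log2 change of -0.01 (adjusted p = 0.986). HDAC3, the deacetylase of the same complex, had 145, 165 and 143 CPM in the controls and 135, 137 and 145 CPM after RA. Its log2 change was -0.12 (interval -0.30 to 0.06, edgeR adjusted p = 0.756). TBL1XR1, TBL1X and HDAC3 therefore had changes of either sign, and none of them passed the test.

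HDAC2 is the close paralogue of HDAC1 and occupies the same complexes. It had 628, 582 and 582 CPM in the control libraries of pairs 1, 3 and 4, and 563, 565 and 534 CPM in the RA libraries. Its RA libraries too were all below its control libraries, but the lowest control and the highest RA library were close. The log2 change was -0.11 (SE 0.07, interval -0.25 to 0.03, edgeR adjusted p = 0.689). Whether the paralogues differed in their change was asked through the ratio of HDAC1 to HDAC2 within each library. The ratio was 0.738, 0.823 and 0.873 in the controls and 0.685, 0.707 and 0.737 with RA. It was lower with RA in 3 of 3 pairs, with a mean log2 change of -0.19 ± 0.07 (SD, n = 3 pairs). HDAC1 was the called member and HDAC2 was not, so this fall is not separate from that call. By an exact permutation test that flipped the signs of the pairs (2-sided), p was 0.25, the smallest that 3 pairs allow, so this test could not have passed the threshold and does not settle whether the changes differ.

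The remaining deacetylases covered the class IIa enzymes HDAC4, HDAC7 and HDAC9, which shuttle between nucleus and cytoplasm, and HDAC11, the single class IV enzyme. HDAC11 was at 30.7, 35.6 and 41.1 CPM in the controls and 43.0, 40.0 and 44.5 CPM after RA. It was higher in 3 of 3 pairs, most in pair 1, with a log2 change of 0.25 (SE 0.12, edgeR adjusted p = 0.586). HDAC7 went in different directions by pair, with log2 changes of -0.28, 0.07 and 0.52 and a fitted value of 0.10 (adjusted p = 0.883). HDAC4 and HDAC9 had fitted changes of 0.01 and 0.03. SIN3A, the scaffold that carries HDAC1 and HDAC2, had a log2 change of 0.06 (interval -0.13 to 0.26).

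The 2 histone demethylases with a KDM symbol in the table, KDM3A and KDM5B, had the most negative class median, -0.31. KDM3A removes a repressive methyl mark from histone tails and is known to be induced by hypoxia. Its level was 125, 145 and 246 CPM in the control libraries of pairs 1, 3 and 4, and 100.2, 126 and 152 CPM in the RA libraries. The control library of pair 4 stood far above the other 5, and the groups overlapped. The log2 change was -0.41 (SE 0.10, edgeR quasi-likelihood adjusted p = 0.0604), with -0.32, -0.20 and -0.69 in pairs 1, 3 and 4. KDM3A thus missed the threshold in the main test, while DESeq2 (adjusted p = 0.0118) and limma-voom (0.0429) with the pair as a block placed it below 0.05. Without pair 4 its log2 change was -0.25 (edgeR adjusted p = 0.547).

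KDM5B removes a methyl mark found at active promoters. It had 403, 340 and 524 CPM in the controls and 386, 300 and 402 CPM after RA. It too was highest in the control library of pair 4 and lower with RA in 3 of 3 pairs, with log2 changes of -0.06, -0.18 and -0.38. The fitted change was -0.21 (SE 0.07, edgeR adjusted p = 0.345), and of the alternatives run, leaving out pair 1 was the one that called it (-0.28, edgeR adjusted p = 0.0443). Without pair 4 its log2 change was -0.12 (adjusted p = 0.882). LDHA, which makes lactate and is likewise induced by hypoxia, was looked up after these values were seen. It was at 3412, 3606 and 7637 CPM in the controls and 1991, 2819 and 3690 CPM after RA, again highest in the control library of pair 4. LDHA was called lower with RA (log2 change -0.73, SE 0.10, edgeR adjusted p = 0.00071), in 3 of 3 pairs. LDHA was picked afterwards and alone, so it does not show how hypoxia-induced genes behaved as a set. The part of oxygen supply in the values of KDM3A and KDM5B was not tested.

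Among bromodomain proteins, which bind acetylated histones, BRD2 differed in sign from the other 3. BRD2 belongs to the BET family, which couples histone acetylation to transcription. Its level was 227, 294 and 280 CPM in the controls and 270, 344 and 329 CPM after RA. The groups overlapped because pair 1 was low in both, yet the log2 change was nearly the same in each pair, at 0.25, 0.23 and 0.23. The fitted change was 0.24 (SE 0.07, interval 0.09 to 0.38), and it did not pass over all genes (edgeR adjusted p = 0.175). Over 11 alternative settings it did not pass either, with adjusted p-values of 0.0541 to 1.

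BRD7, a subunit of the PBAF remodelling complex, was lower with RA in 3 of 3 pairs. It had 387, 396 and 378 CPM in the controls and 356, 358 and 354 CPM after RA, with no overlap. The log2 change was only -0.12 (SE 0.07, edgeR adjusted p = 0.655). BRD1, a partner of the acetyltransferase KAT7, had a log2 change of -0.11, and BRD8, of the TIP60 acetyltransferase complex, one of -0.07. KAT7 itself was at -0.01 (interval -0.16 to 0.13), and KAT14, of the ATAC acetyltransferase complex, at -0.09. Neither acetyltransferase moved one way in all pairs.

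DNMT3A and DNMT3B add new methyl groups to DNA. DNMT3A had 192, 221 and 277 CPM in the controls and 259, 254 and 268 CPM after RA. It was higher with RA in pairs 1 and 3 (log2 changes 0.43 and 0.20) and not in pair 4 (-0.05). The fitted change was 0.20 (SE 0.09, edgeR adjusted p = 0.54), with 0.08 when pair 1 was left out and 0.33 when pair 4 was. DNMT3B was at 0.09 (interval -0.07 to 0.26), and TET2, which oxidizes methylated cytosine, at 0.07 (-0.11 to 0.26). All 3 fitted values were above 0 and none passed the test.

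The 8 remodellers tested had log2 changes from -0.07 to 0.20 and the smallest adjusted p was 0.653. The BAF core subunits SMARCB1 and SMARCE1 were at -0.07 (interval -0.21 to 0.08) and 0.06 (-0.09 to 0.20). The BAF ATPase SMARCA2 was at 0.02 (-0.15 to 0.19). ARID3B, a DNA-binding protein named for its ARID domain, gave the highest value, 0.20 (SE 0.11, adjusted p = 0.653), and was higher in 3 of 3 pairs. ARID4A, a SIN3 complex subunit, was at 0.01, and ARID5B, a partner of a histone demethylase, at -0.05. CHD7, a remodeller mutated in CHARGE syndrome in humans, was at 0.10 (adjusted p = 0.761), and its relative CHD2 at -0.05 (adjusted p = 0.931).

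The methyltransferase class held 5 genes, all with SETD symbols, with log2 changes from -0.20 to 0.16. No KMT, EZH, EED or SUZ12 symbol was in the table, so those genes were not measured here. SETD1B, which methylates histones at active promoters, was at 0.00 (interval -0.24 to 0.24), and SETD5 at -0.01 (-0.16 to 0.13). SETD3, known for methylating actin, was at -0.08 and was lower in 3 of 3 pairs. SETD6 was at 0.16 (adjusted p = 0.718). SETD4 had the fewest reads, at 9.59 to 14.3 CPM, and the widest interval.

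A fixed list of 117 further chromatin complex subunits was read beside these. The table held 45 of them, and 42 were tested. By edgeR 0 were called in either direction, against 54 of all 5041 genes tested. An unadjusted p under 0.05 was found for 3 of the 42, against 448 of the 5041 genes, or 8.89%. The median log2 change of the 42 was -0.01. The smallest p belonged to BCL11A, a zinc finger protein of neural BAF complexes. It had 39.4, 45 and 75.2 CPM in the controls and 65.6, 51.8 and 108 CPM after RA, higher in 3 of 3 pairs, with a log2 change of 0.49 (SE 0.11, edgeR adjusted p = 0.0557). The others with an unadjusted p under 0.05 were BAZ2B (0.22, adjusted p = 0.346) and SIRT6 (-0.26, adjusted p = 0.473).

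Over the whole table, differences between the embryo pairs were called more often than a response to RA, for 685 against 54 of 5041 genes. The same order held among the members. With the treatment in the model, 9 of the 35 members, or 25.7%, differed between pairs at an edgeR adjusted p under 0.05. This held for 13.6% of all genes tested and for 16.1% of those in the members' range of mean count. The 9 were KDM3A, KDM5B, CHD2, CHD7, NCOA1, BRD2, TET2, SETD5 and HDAC4. Of these, 8 were highest in pair 4 and 7 were lowest in pair 1. Among all 685 genes that differed between pairs, 41.8% were highest in pair 4 and 44.8% were lowest in pair 1. Without pair 4 the number was 2 of the members and 389 of all genes.

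CHD2 had the pair means furthest apart among the remodellers, by 0.67 on the log2 scale. It had 278, 405 and 426 CPM in the control libraries of pairs 1, 3 and 4 and 295, 301 and 485 CPM after RA. Pair 1 was thus low and pair 4 high in both groups (edgeR adjusted p between pairs = 0.00508). Pair 3 was not stable between the groups, with a log2 change of -0.43, against 0.09 and 0.19 in pairs 1 and 4. CHD7 had 352, 438 and 486 CPM in the controls and 402, 408 and 565 CPM after RA (edgeR adjusted p between pairs = 0.00819). TET2 ran from 103 and 102 CPM in pair 1 to 130 and 154 CPM in pair 4. By contrast HDAC1 hardly varied between pairs, with pair means 0.08 apart on the log2 scale (adjusted p between pairs = 0.755). The pair means of KDM3A were 0.79 apart, though both genes were lower with RA in 3 of 3 pairs.

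**Figure D3:**
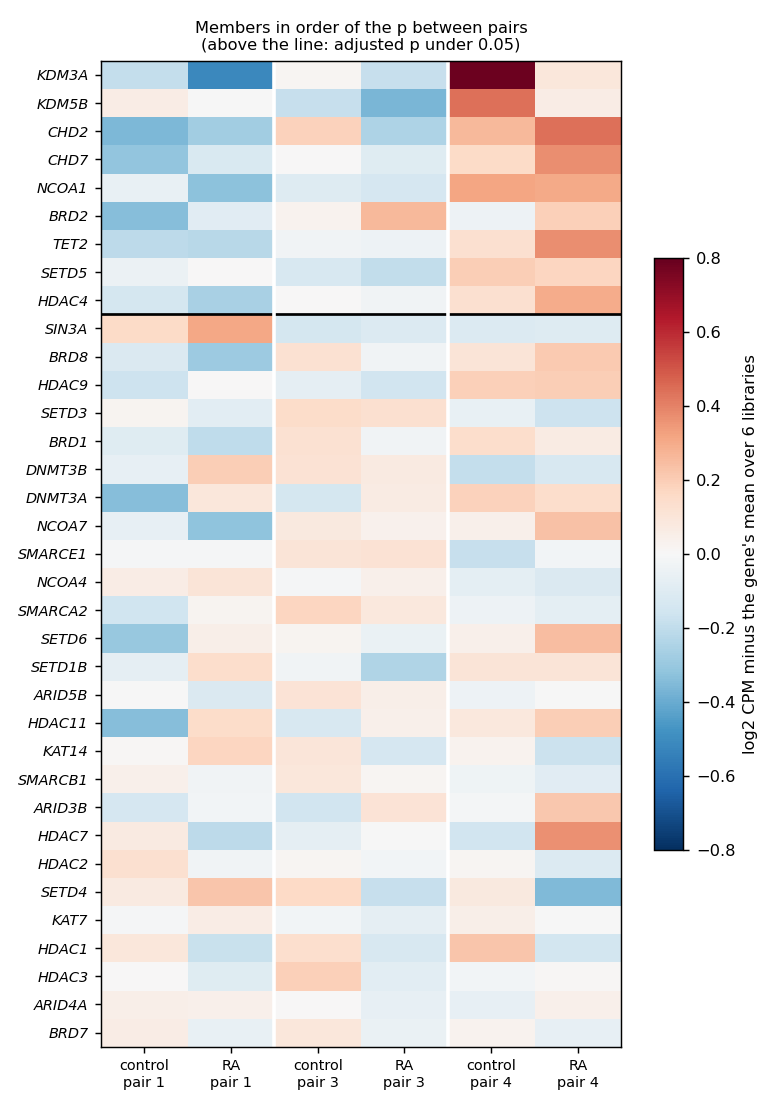
Log2 CPM of the 35 members tested, less each gene's mean over the 6 libraries, with libraries in pair order and genes in order of the p between pairs. The 9 genes above the line differed between pairs, most of them blue in pair 1 and red in pair 4, while HDAC1 and BRD7 near the bottom alternate between control and RA in each pair.

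Other measures differed between the pairs as well. The libraries of pair 1 came from 57000 (control) and 98000 (RA) sorted cells, and those of pairs 3 and 4 from 161000 to 200000. Total RNA was 52.8 and 106.7 ng in pair 1, 207.9 and 147.4 ng in pair 3, and 173.8 and 132 ng in pair 4, the control library first. Input thus also differed within pairs, with more RNA in the RA library of pair 1 and in the control libraries of pairs 3 and 4. All 9 of the proliferation markers in the table differed between pairs, with summed levels of 3583 and 3808 CPM in pair 1, 3799 and 3901 CPM in pair 3, and 3359 and 3495 CPM in pair 4, the control library first. The sum was thus higher with RA in each pair, but the markers were split. The fitted log2 change was above 0 for 5 of the 9 and below 0 for 4, TOP2A, CDK1, CCNB2 and BUB1. The smallest edgeR adjusted p for RA among the 9 was 0.229, for MCM3. The summed progenitor markers were highest in pair 4, at 12187 and 14566 CPM. In such bulk samples, fewer cells of a type and less RNA per cell cannot be told apart. The part of these measures in the differences between pairs, or in the changes within a pair, was not tested.

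**Figure D4:**
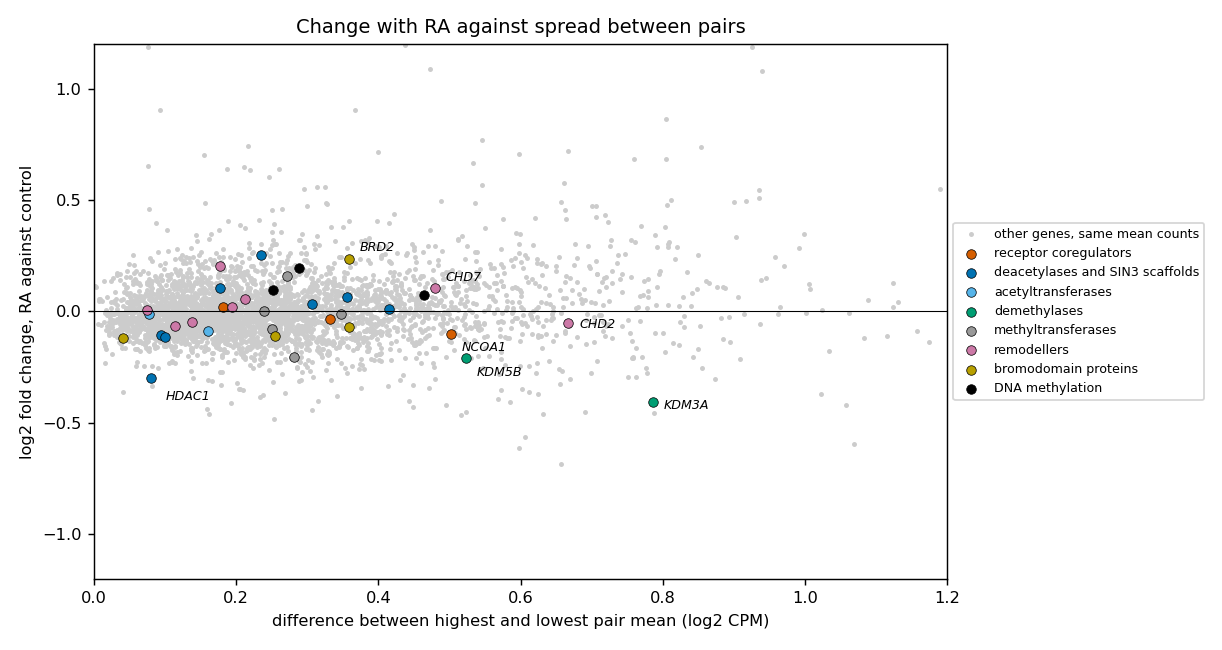
Fitted log2 change with RA (vertical) against the difference between the highest and the lowest pair mean in log2 CPM (horizontal), for the members by role and, in grey, for other genes in their range of mean count, of which 26 lie beyond the axes. HDAC1 lies at a change of -0.30 and a pair difference of 0.08, KDM3A at -0.41 and 0.79, and most members are spread along the horizontal axis near a change of 0.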

How the data were processed

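RNA was amplified from sorted cells and sequenced as single reads of 100 bases, per the labels' protocols. The submitters' processing notes name STAR 2.5.3a, HTSeq 0.6p1, edgeR 3.18.1 and the build galGal5, without their roles. The annotation and strand setting are not given in the sources used here, so reads of overlapping genes cannot be told apart. The authors deposited raw counts per gene symbol and a CPM table whose columns equal the counts divided by 1 factor per library. The authors' deposited comparison gives log2 fold changes, log2 CPM and p-values of a paired test not named in its header.

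Counts were filtered with filterByExpr (minimum count 10, total 15) and scaled by TMM, and 5041 genes were fitted with edgeR 4.0.16 (R 4.3.3) by the quasi-likelihood test. Pair was a block, and p-values were adjusted by Benjamini-Hochberg over all genes. This leaves 2 residual degrees of freedom per gene before moderation. Intervals use the log2 change divided by the square root of F as standard error. Levels are CPM with TMM-scaled library sizes, and changes within a pair use log2 CPM with a prior count of 2. Alternatives used DESeq2 1.42.0, limma 3.58.1 (voom), other scalings and filters, no block, and each pair left out.

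Control and treated eyes come from the same embryos, per the labels. Deviations from the group means correlated at 0.29, 0.25 and 0.34 in pairs 1, 3 and 4. The smallest chi-square per degree of freedom between replicates was 49.2, so none counted as a repeat. Counts carry no molecular identifiers, so depth gives counting error only. With the pair as a block, p-values for RA set the mean RA change against its spread among these pairs, after moderation over genes. Members and lists were chosen with earlier results of these data known. Genes named were the coregulators, called members, the 2 smallest p and the most abundant member in CPM per class, and the 5 smallest p between pairs; the other members are named to account for all 37. The 37 symbols matched RefSeq names of GRCg7b, 36 directly and 1 through a synonym.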

Additional observations from a re-analysis of the deposited data

How the results depend on the processing

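The call of HDAC1 alone among the members depended on the settings. The number of members called was 1 in the main fit and 0 without the replicate block or under RLE scaling. It was 2, HDAC1 and KDM3A, with DESeq2, with limma-voom, under upper-quartile scaling, with no filter on low counts, with a filter of more than 1 CPM in 3 libraries, and (edgeR) at an adjusted p under 0.1. Leaving out 1 pair gave 0 to 3 members, the 3 being HDAC1, KDM3A and KDM5B without pair 1. The number of genes called in the whole table, 54, was 7 without the replicate block, 88 with DESeq2 and 85 with no filter. It was 59 with limma-voom, 49 under RLE scaling, 67 under upper-quartile scaling and 60 with the filter of more than 1 CPM. Without pairs 1, 3 and 4 in turn it was 81, 36 and 53, and at an edgeR adjusted p under 0.1 it was 71. The number of members that differed between pairs, 9, was 2 to 10 when a pair was left out, with 2 without pair 4. Lower calls in the whole table, 6, were 24 without pair 1, 15 with no filter, 14 with DESeq2, 3 under RLE scaling, 2 without pair 4 and 0 without the block. The number of members bounded within 0.5 log2 stayed between 29 and 32. With 1 pair left out, the coregulators' median log2 change ran from -0.141 (without pair 4) to 0.0045 (without pair 1) and the other members' from -0.042 to 0.037, so neither median has a settled sign. Of 231 values of 21 named genes over the alternatives, 214 kept direction and side of the threshold. With 1 pair left out, the log2 change of 15 of the 21 moved by over 1.5 times, and that of HDAC1, HDAC2, BRD2, BRD7, ARID3B and SETD3 did not. Genes that changed sign were near 0. With 1 pair left out in turn the log2 change ran from -0.165 to 0.135 for CHD2 (reversed without pair 3), from -0.0534 to 0.0176 for KAT7 and from -0.0480 to 0.0119 for SETD5 (both reversed without pair 3 and without pair 4), and from -0.141 to 0.0739 for NCOA7 (reversed without pair 1). Where calls changed, the cause was not tested.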
